A study of Homo sapiens with 2 samples.

Results

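The cells described here are the histone-high cells of a single-cell RNA-seq experiment on cells that the labels name as MOLT4, a widely used T-cell leukemia line. The cells were chosen by 1 measured value, their share of histone RNA. For every cell, the UMIs of all 55 genes whose symbol starts with HIST1H were added and divided by the cell's total UMIs, a UMI being a tag that marks 1 captured RNA molecule. The top 15% of each library by this share were taken, which gave 259 of 1732 cells, 144 of 963 in the untreated control and 115 of 769 after SP11. Below they are called histone-high cells or members, and the remaining 819 control and 654 SP11 cells are called other cells.

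The control library came from untreated cells and the SP11 library from cells that received 0.8 µM SP11 for 48 h. SP11 is a compound that, by the study's account, inhibits HSP90, a chaperone on which many signalling proteins depend for their fold. There was 1 library per group, so the cells are not replicates, no test between groups was possible, and intervals are 95% intervals that cover counting error only. Cells with 200 or more genes, at most 20% mitochondrially encoded UMIs and 4400 or more UMIs were used, and they had a median of 18250 UMIs in control and 11222 in SP11.

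Facts of the libraries that touch these cells are few. Members were deeper than other cells, with a median of 21574 against 17804 UMIs in control and 13110 against 10844 in SP11. Scrublet, which marks barcodes that look like a mixture of cells, called 9.03% of control members against 3.91% of other cells, and 6.09% against 2.14% in SP11. Both depth and doublet calls therefore moved with membership, and their part in the results was not tested beyond the values after removal of the calls and after thinning to equal depth. A set of 91 barcodes occurred in both libraries, 13 of them among control members and 15 among SP11 members. The pairs that shared a barcode had unrelated profiles, with a median correlation across 2991 genes of 0.00073 against -0.00047 for pairs with different barcodes. Of the 23 T-lineage markers listed, 11 were at 0 UMIs in control and 14 in SP11. Levels are given in CPM, the usual scaled share of UMIs, with HIST UMIs left out of the total except for histone genes. The summed level of the T-lineage markers in members was 66.5 CPM in control and 46.7 in SP11. For other cells it was 78.7 and 48.1 CPM, so most of the markers that define T cells were absent or near 0 in these libraries.

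Histones are the proteins that DNA is wound around, and a cell that copies its DNA must also make new histones. The replication-dependent histone genes lie in clusters, are transcribed mainly in S phase, and give mRNAs that lack introns and usually end in a short stem-loop rather than a poly(A) tail. The stem-loop is bound by SLBP, and the mRNAs are degraded when DNA synthesis stops. The core histones H2A, H2B, H3 and H4 form the nucleosome, and H1 linker histones bind the DNA between nucleosomes. Droplet methods of the kind used here usually prime on poly(A), so for these genes UMIs count only the molecules that were captured.

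The 3′ ends of the histone genes that the results turn on are shown because they carry the feature that sets this gene family apart. Each is printed 5′ to 3′ on the strand of the gene, from GENCODE 44 on GRCh38, with the paired arms of the stem-loop in capitals.
HIST1H4C: ccaaaGGCCCTtttcAGGGCCgctca
HIST1H1C: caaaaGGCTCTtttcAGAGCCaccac
HIST1H1B: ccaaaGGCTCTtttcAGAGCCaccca
HIST1H3B: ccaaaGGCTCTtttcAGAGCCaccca
HIST1H3C: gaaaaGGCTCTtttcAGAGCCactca
HIST2H2AC: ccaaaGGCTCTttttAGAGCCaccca

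The HIST1H genes lie on chromosome 6, with HIST1H4C at chr6:26103933-26104337 on the plus strand, HIST1H1C at chr6:26055740-26056470 on the minus strand and HIST1H1B at chr6:27866792-27867588 on the minus strand. HIST1H3B lies at chr6:26031589-26032099 on the minus strand and HIST1H3C at chr6:26045384-26045869 on the plus strand. HIST2H2AC lies in another cluster, at chr1:149886918-149887411 on the plus strand. The stem-loops printed above lie in the 3′ UTR, close to the annotated end of the gene, and for HIST1H4C the annotation ends 5 bases after the loop. A motif was derived from the HIST genes themselves, as the bases shared by every copy of their most common hairpin. It reads GGNNCTTNTNAGNGCC and was searched on the gene's strand. By its construction it is present within 150 bases after a stop codon in all 69 HIST genes found in the annotation. Of 20033 protein-coding genes, 53 (0.265%) held it within 100 bases on either side of the gene's end. HIST genes were not left out of that count. The loop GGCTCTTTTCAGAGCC was the most common, in 39 HIST genes.

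The members are a range cut from a score, and cells lay close to the limit on both sides. In control the lowest member had a HIST1H share of 0.315% of its UMIs and the highest other cell 0.314%. In SP11 these values were 0.314% and 0.313%. Within 10% of the limit lay 31 members and 31 other cells in control, but only 10 members and 7 other cells in SP11. The share of members ran from 0.315% to 0.666% in control, with a median of 0.401%, and from 0.314% to 1.85% in SP11, with a median of 0.624%. Other cells had a median of 0.0273% in control and 0.0386% in SP11, and 48 and 73 of them had no HIST1H UMI. The SP11 library thus reached higher shares with fewer cells near the limit. These shares chose the cells and are a description.

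**Figure D1:**
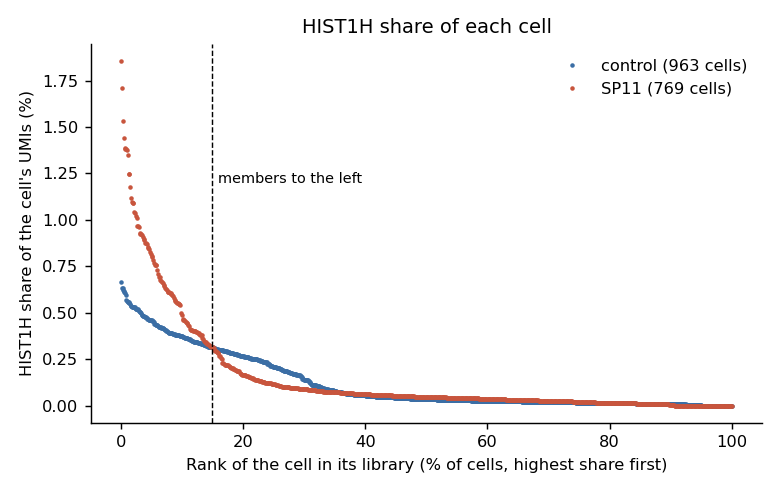
HIST1H share of each cell's UMIs in percent (vertical axis) against the rank of the cell in its own library in percent of cells, highest first (horizontal axis), 1 point per cell, 963 control and 769 SP11 cells. The dashed line is the limit at 15%, where both libraries are near 0.31%, and to its left SP11 cells rise to 1.85% and control cells to 0.666%.

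HIST1H4C, 1 of the many genes for histone H4, carried most of the signal, and far more so after SP11. Summed over members, HIST1H4C gave 2349 CPM in control and 6386 CPM after SP11, for a log2 ratio of 1.44 (1.40 to 1.49). The remaining 54 HIST1H genes together gave 1860 CPM in control members and 517 CPM in SP11 members, a log2 ratio of -1.85 (-1.96 to -1.74). HIST1H4C therefore made up 55.8% of the HIST1H UMIs of control members and 92.5% of those of SP11 members. In the other cells HIST1H4C made up 50.6% and 85.1%. The rule chose members on these UMIs, and in the other cells the log2 ratio of HIST1H4C between SP11 and control was smaller, at 0.32 (0.26 to 0.38). Cell by cell, the HIST1H4C part of a member's HIST1H UMIs ran from 13.1% to 80.6% in control, with a median of 56.7%, and from 77.2% to 100% in SP11, with a median of 93.5%. The interquartile ranges of the libraries, 48.0% to 64.8% and 89.0% to 95.8%, did not overlap.

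The histone classes other than HIST1H4C were lower in SP11 members without exception among those summed, but to different degrees. The H1 linker genes fell from 1174 to 401 CPM, a log2 ratio of -1.55 (-1.67 to -1.43). The H2A genes fell from 270 to 81.9 CPM, a log2 ratio of -1.72. The core classes H2B and H3 were lowest, with H2B at 135 and 12.2 CPM (log2 ratio -3.46) and H3 at 222 and 12.2 CPM (log2 ratio -4.18). The H4 genes other than HIST1H4C went from 60.7 to 9.67 CPM, a log2 ratio of -2.65 (-3.52 to -1.89), so the rise of H4 in SP11 members was that of 1 gene. The 16 HIST2H, HIST3H and HIST4H genes went from 202 to 89.6 CPM, a log2 ratio of -1.17 (-1.45 to -0.91). The other cells were lower after SP11 in all these classes too. Their log2 ratios were -1.99 for H1, -2.21 for H2A and -1.80 for the HIST2H, HIST3H and HIST4H genes, all larger falls than in members. For H2B (-2.23), H3 (-3.15) and the H4 genes other than HIST1H4C (-2.51) the fall was smaller than in members. The 54 HIST1H genes other than HIST1H4C had -2.16 in other cells, against -1.85 in members.

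Among single linker genes, HIST1H1C had 386 CPM in control members and 131 in SP11 members, HIST1H1D 312 and 89.6, HIST1H1E 259 and 117, and HIST1H1B 216 and 63.2. All 4 were lower in SP11 members by 1.15 to 1.80 on the log2 scale. HIST1H3B, a gene for histone H3, had 346 UMIs over the 144 control members and 5 over the 115 SP11 members, a log2 ratio of -5.03 (-6.67 to -3.80). For HIST1H3C, another H3 gene, 101 and 2 UMIs were counted. Of the 4 marker genes given for these cells, HIST1H4C was thus higher and HIST1H1B, HIST1H3B and HIST1H3C were lower in SP11 members than in control members. The directions were the same in other cells, with log2 ratios of 0.32, -2.23, -4.57 and -4.11 in that order. Histone genes of 1 class are close copies of each other, and reads that match several of them can be split or lost in counting, so the level of a single gene is uncertain.

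Grouped by stem-loop and by annotated end, the other HIST1H genes had the following values, given as a description. The 8 other HIST1H genes with the same loop as HIST1H4C together gave 135 UMIs in control members and 11 in SP11 members, a log2 ratio of -2.54 (-3.57 to -1.65). The 46 with a different loop had a log2 ratio of -1.84 (-1.94 to -1.73). The 8 are all H4 genes, while H1 linker genes gave 3846 of the 5962 control-member UMIs of the 46. Loop and histone class thus largely coincide, so the grouping cannot tell them apart. The 42 whose annotation ends within 10 bases of the loop went from 1725 to 502 CPM, and the 10 that run more than 100 bases past it went from 133 to 14.8 CPM. The longest run of A within the gene was 7 bases in HIST1H4C and in HIST1H1D. Some other HIST1H genes held longer runs, among them HIST1H3J with 24 bases and HIST1H2BD and HIST1H2BJ with 22.

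**Figure D2:**
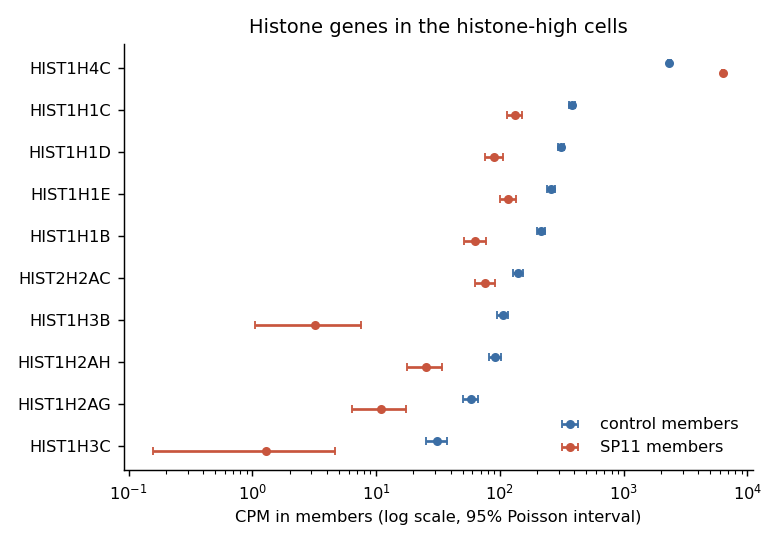
Level of 10 histone genes summed over the histone-high cells, in CPM (log scale), in control (blue, 144 cells) and SP11 (red, 115 cells), with 95% Poisson intervals. HIST1H4C is the one gene that is higher in SP11, and HIST1H3B and HIST1H3C, with 5 and 2 UMIs, are lowest there.

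Since the libraries differ in depth, the cells were also thinned to 4400 UMIs each. At this depth a control member had a median of 19 HIST1H UMIs, from 7 to 35, and an SP11 member 29, from 9 to 81. Of these, HIST1H4C gave a median of 10 in control and 27 in SP11, while the other HIST1H genes gave 8 and 2. The number of different HIST1H genes seen per member was 6 in control (2 to 11) and 3 in SP11 (1 to 6), against 14 and 5 before thinning. These counts come from the UMIs that chose the cells and are a description.

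HIST2H2AC, a gene for histone H2A on chromosome 1, was not used to choose the cells and lies outside the HIST1H cluster. In control it had 141 CPM in members and 32.2 CPM in other cells, a log2 ratio of 2.14 (1.95 to 2.32). After SP11 it had 76.1 and 12.0 CPM, which is a log2 ratio of 2.67 (2.26 to 3.07). The median cell gave 119 CPM among control members and 51.4 CPM among SP11 members, and 0 among other cells of both libraries. A UMI of it was found in 89.6% of control members and 31.5% of other cells, and in 54.8% and 11.2% in SP11. This histone gene outside the rule was thus higher in members, but it was not limited to them. All HIST genes were left out of the comparisons that follow.

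The second question was which other genes set histone-high cells apart from the rest of their library. A gene counted as measured with 200 or more UMIs in a library, and a 1.5-fold difference served to give sizes, not as a test. In control, 121 of 8848 measured genes (1.37%) were at least 1.5-fold higher in members and 403 (4.55%) were lower, with a median log2 ratio over all genes of -0.03. In SP11, 83 of 5999 (1.38%) were higher and 301 (5.02%) lower, with a median of -0.07. Scaling by TMM factors turned these splits into 181 higher and 281 lower in control and 142 and 188 in SP11. DESeq2 size factors gave 192 and 256 in control and 169 and 154 in SP11. Lower genes outnumbered higher ones in control under all of these scalings, but to different degrees. In SP11 they did so except with DESeq2 factors. Few genes outside the histones thus differed by this size. Of the 5975 genes measured in both libraries, 78 were higher in control members and 83 in SP11 members, with 34 in common, 43.6% and 41.0% of the lists. Lower genes were shared less evenly, with 33 in common out of 99 in control and 295 in SP11, which is 33.3% and 11.2%.

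Genes of DNA synthesis were among those higher in members of both libraries. RRM2, the small subunit of the ribonucleotide reductase that makes deoxynucleotides, had 481 CPM in control members and 263 in other cells, a log2 ratio of 0.87 (0.79 to 0.96). In SP11 it had 689 and 346 CPM, a log2 ratio of 0.99 (0.89 to 1.10). PCNA, the sliding clamp of the replicative polymerases, had 367 and 228 CPM in control (log2 ratio 0.69, 0.59 to 0.78) and 454 and 265 in SP11 (log2 ratio 0.78, 0.65 to 0.90). Both genes were also higher in the median cell, with PCNA at 339.8 CPM in control members against 203 in other cells and at 433 against 233 in SP11. The spread between cells was wide, and for PCNA the lower quartile of members, 252 CPM in control and 277 in SP11, lay below the upper quartile of other cells, 309 and 380.

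Further genes past 1.5-fold in both libraries act at replication forks or in the step from S phase to mitosis. FBXO5, an inhibitor of the ubiquitin ligase APC/C, had log2 ratios of 0.96 in control and 1.14 in SP11. FAM111A, a protease that binds PCNA, had 0.94 and 1.11. HELLS, a chromatin remodeller, had 0.72 and 0.86, GINS1, a subunit of the replicative helicase, 0.65 and 0.75, and DONSON, a replisome factor, 0.67 and 0.73. The kinetochore genes SPC25 and NDC80 and the mitotic genes ANLN and AURKB were higher as well, with SPC25 at 159 CPM in control members against 69.6 in other cells and at 138 against 69.7 in SP11. WWOX, a gene at a common fragile site, and CAB39L were higher too, WWOX by 0.65 and 1.32 on the log2 scale and CAB39L by 0.62 and 1.26.

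CDC20, PTTG1 and UNG were lower in members of both libraries. CDC20, the activator of APC/C in mitosis, had 29.4 CPM in control members against 61.5 in other cells, a log2 ratio of -1.06 (-1.38 to -0.76). In SP11 it had 87.0 and 194 CPM, a log2 ratio of -1.16 (-1.42 to -0.90). PTTG1, the gene for securin, had log2 ratios of -0.61 and -0.77. Cyclin B1, encoded by CCNB1, had a log2 ratio of -0.51 in control, which missed 1.5-fold, and of -1.09 in SP11. In the median control cell CCNB1 was higher in members, at 51.5 CPM against 40.0 in other cells. UNG, which removes uracil from DNA and belongs to the S phase list, was lower in members of both libraries, with log2 ratios of -0.73 and -0.61. FBXL20, an F-box gene, had log2 ratios of -1.64 and -2.61.

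A few ratios rested on few cells. MMP1, a collagenase, had 7 UMIs in control members, all in 1 cell, and 945 in other cells, of which 321 were in 1 cell. In SP11 it had 34 and 850 UMIs, with up to 158 in 1 cell. S100A8, the gene for a calcium-binding protein of myeloid cells, had 1 UMI over all control members.

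**Figure D3:**
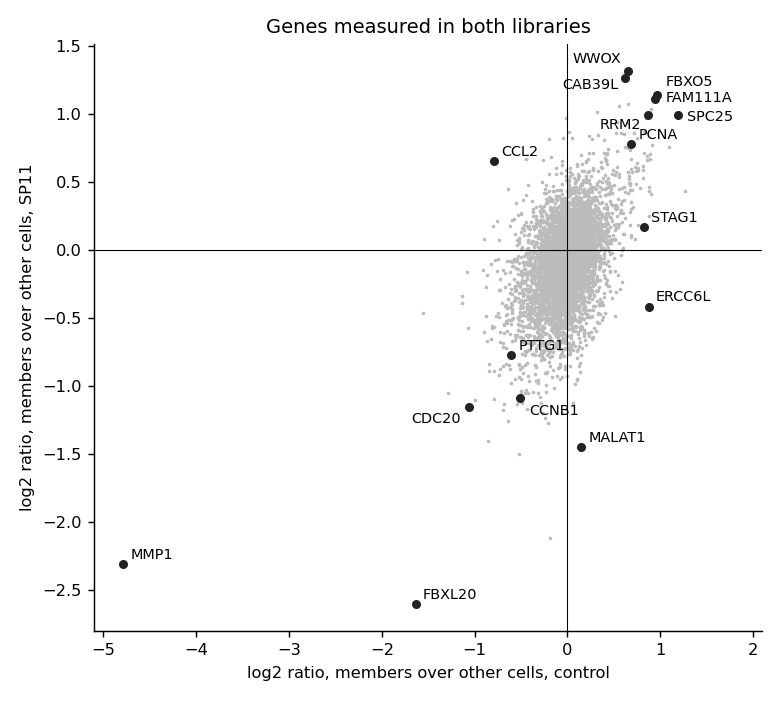
Log2 ratio of members over other cells in control (horizontal axis) and SP11 (vertical axis) for 5974 of the 5975 genes measured in both libraries, with 1 gene not shown and HIST genes left out and named genes in black. RRM2, PCNA, FBXO5, FAM111A, SPC25, WWOX and CAB39L lie at the upper right, CDC20, FBXL20 and MMP1 at the lower left, and MALAT1, CCL2, STAG1 and ERCC6L differ between the libraries.

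Gene lists were used to ask how far these cells carry an S phase profile. The lists were chosen with results of these data known, and they are described by counts and medians beside the values for all genes given above. Of the 43 S phase genes of Seurat, 8 were at least 1.5-fold higher in control members (among them RRM2, E2F8, ATAD2, HELLS, PCNA, RRM1 and CENPU), 1 was lower (UNG), and the median log2 ratio was 0.28. In SP11, 7 of 41 measured were higher and 2 lower (UNG and DTL), with a median of 0.23. Their summed level was 4937 CPM in control members and 3806 in other cells, a log2 ratio of 0.38 (0.35 to 0.40), and in SP11 members it was 5380 against 4229 CPM, with a log2 ratio of 0.35 (0.31 to 0.38). Without the barcodes found in both libraries these ratios were 0.37 and 0.37, without Scrublet calls 0.37 and 0.37, and after thinning to 4400 UMIs 0.42 and 0.36. The median cell gave 4969 CPM among control members and 3612 among other cells, and 5404 and 4198 in SP11. The difference was spread over the list, with a ratio above 0 for 39 of 43 S phase genes in control and 31 of 41 in SP11.

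The parts of the replication machinery differed in size. Deoxynucleotide synthesis was raised as a sum by 0.38 in control and 0.36 in SP11 on the log2 scale, although only RRM1 and RRM2 of 20 measured genes passed 1.5-fold in control and only RRM2 of 18 in SP11. DUT, which removes dUTP, had log2 ratios of 0.55 and 0.44. For origin licensing and firing the sums were 0.31 and 0.22, with 3 of 27 genes higher in control (TICRR, DONSON and GINS1) and 2 of 24 in SP11 (GINS1 and DONSON). For replicative polymerases and the fork they were 0.28 and 0.21, where PCNA alone passed in control, and PCNA and POLD3 were higher and POLD4 lower in SP11. Histone chaperones and chromatin assembly gave 0.17 and 0.05. Fork protection and recombination gave 0.21 and 0.14, with 1 of 30 genes higher and 1 lower in control, and 2 of 26 higher (among them BLM) and 4 lower (XRCC2, MSH6, WRN and UNG) in SP11.

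Genes that act on histone mRNA itself did not differ between members and other cells by 1.5-fold. None of the 21 measured genes for histone mRNA transcription and processing in control, or of 19 in SP11, reached 1.5-fold in either direction, and the medians were 0.01 and -0.03. SLBP, the stem-loop binding protein, had 118 CPM in control members and 111 in other cells, and 193 and 188 in SP11. Along 10 bins of SP11 cells ordered by HIST1H share, SLBP went from 132 CPM in the lowest to 251 in the eighth. It was at 180 CPM in the highest SP11 bin. In control SLBP had 111 CPM in the lowest bin and 119 in the highest. The replication-independent histones, which are made outside S phase too, had sums of 0.14 in control and 0.31 in SP11. H3F3A, a gene for the variant H3.3, had log2 ratios of 0.09 and 0.51, a difference between the libraries of 0.42 (0.34 to 0.50). H2AFX, the variant phosphorylated at DNA breaks, had 0.72 in control, and in SP11, where its 168 UMIs were under the minimum, 1.25.

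The G2M list had a higher sum in control members than in SP11 members relative to other cells. In control, 11 of 54 genes were higher in members (among them NDC80, ANLN, KIF11 and CKAP2L) and 2 were lower (CDC20 and PSRC1), and the sum had a log2 ratio of 0.24 (0.22 to 0.26). The median cell gave 6576 CPM among control members and 3987 among other cells. In SP11, 7 of 47 were higher and 3 lower, the median was 0.07 and the sum 0.05 (0.02 to 0.08), with the median cell at 6483 and 6018 CPM. The direction of that sum turned with the choice of cells, to -0.050 for the top 20% and to -0.11 for a score without HIST1H4C, an alternative chosen after seeing the data, and DESeq2 size factors gave 0.18. The difference of the summed ratios, SP11 minus control, was -0.19 (-0.23 to -0.15) for the G2M list and -0.03 (-0.07 to 0.01) for the S phase list. Cohesin and condensin genes, which hold and fold sister chromatids, showed the same split, with 6 of 19 higher in control (STAG1, ESCO2, NCAPH2, NCAPH, NCAPG2 and NCAPG) and 3 in SP11 (ESCO2, NCAPH2 and CDCA5), and sums of 0.38 and 0.09. Genes of mitotic entry and exit had 6 of 44 higher and 2 lower in control (CDC20 and PTTG1), and 3 of 38 higher and 5 lower in SP11 (CDC20, CCNB1, PTTG1, CDC25B and DLGAP5), with sums of 0.23 and 0.03.

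Phase calls by Seurat placed the histone-high cells in S and in G2M. Of the control members 42.4% were called S, 53.5% G2M and 4.17% G1, against 31.3%, 31.5% and 37.2% of other cells. Of the SP11 members 48.7% were called S, 40.0% G2M and 11.3% G1, against 27.4%, 42.0% and 30.6%. After thinning to 4400 UMIs, S calls were 38.2% of control members and 47.0% of SP11 members, and G1 calls were 14.6% and 13.0%. The label of S phase cells thus held in part. G1 calls were scarce among members, while more control members were called G2M (77 cells) than S (61 cells). Sets of 15% of the cells drawn without regard to each other would share 15%. The 144 control cells with the highest S phase list share had 46 cells (31.9%) in common with the members, and in SP11 34 of 115 (29.6%). For the G2M list the overlaps were 12 (8.33%) and 9 (7.83%).

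**Figure D4:**
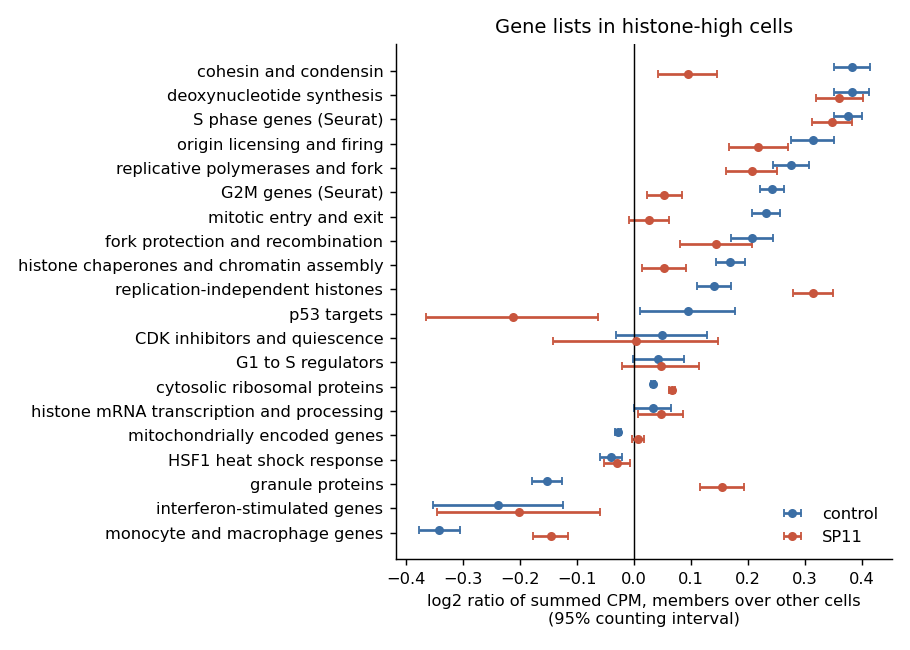
Log2 ratio of the summed CPM of each gene list in histone-high cells over other cells, in control (blue) and SP11 (red), with 95% counting intervals. The S phase and deoxynucleotide lists lie between 0.35 and 0.38 in both libraries, while cohesin and condensin, mitotic and G2M genes lie between 0.23 and 0.38 in control and between 0.03 and 0.09 in SP11.

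The HIST1H share was cut into 10 bins of cells per library. From the lowest to the highest bin the S phase list rose and CCNB1 fell. The S phase list went from 2956 CPM in the lowest bin to 5005 in the highest in control, and from 3628 to 5508 in SP11. PCNA went from 179 to 370.0 CPM in control and from 265 to 482 in SP11, with most of the climb in the upper bins. CCNB1 went from 171 to 62.0 CPM in control and from 224 to 56.3 in SP11. The G2M list was high at both ends, with 7605 CPM in the lowest bin, 4390 in the fourth and 7173 in the highest in control, and with 8734 CPM in the lowest bin, 5558 in the eighth and 6978 in the highest in SP11. The list of mitotic entry and exit had the same shape, with 5855 CPM in the lowest bin, 2887 in the fourth and 5178 in the highest in control. The cells with the fewest histone UMIs were therefore also the highest for CCNB1, and the histone-high cells had many G2M list UMIs with few of CCNB1. Across the 963 control cells the HIST1H share had a Spearman correlation of 0.56 with the S phase list, 0.59 with deoxynucleotide synthesis and 0.24 with the G2M list. Across the 769 SP11 cells these were 0.43, 0.28 and -0.20. These are descriptions across cells of 1 library, which share a total in the denominator, and the share also had a correlation of 0.29 with the cell's UMIs in control and 0.07 in SP11.

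**Figure D5:**
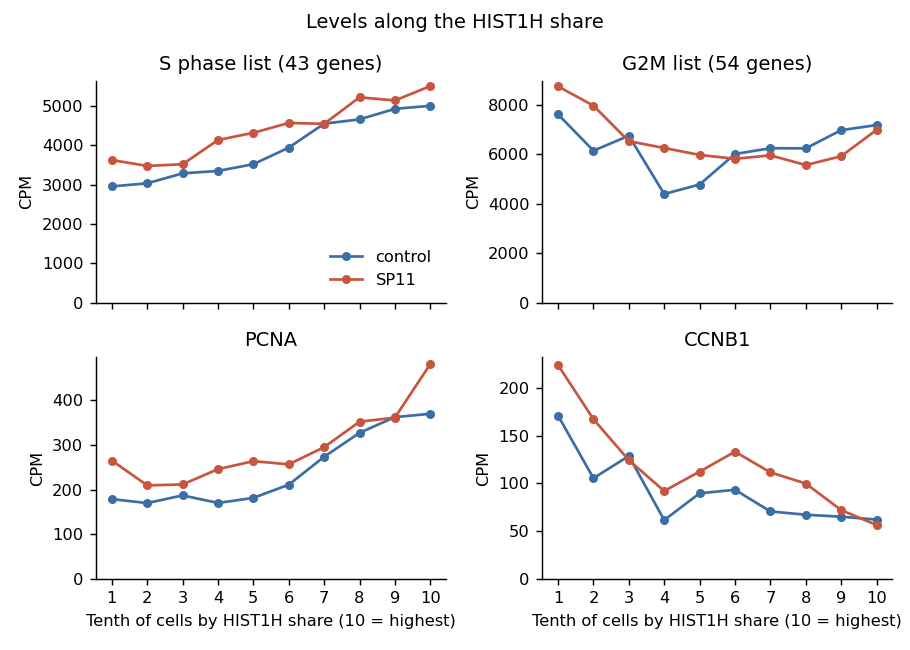
Summed level in CPM (vertical axes, from 0) of the S phase list, the G2M list, PCNA and CCNB1 in 10 bins of cells ordered by HIST1H share (horizontal axes, 10 is highest) in control (blue) and SP11 (red). The S phase list climbs to 5005 and 5508 CPM, CCNB1 falls from 171 to 62.0 and from 224 to 56.3, and the G2M list is high at both ends. In control CCNB1 is already at 61.4 CPM in the fourth bin.

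Several genes stood apart from other cells in 1 library and not, or in the opposite direction, in the other. The ratios of members over other cells differed by at least 1.5-fold between the libraries in the direction of SP11 for 76 of 5975 genes (1.27%) and in that of control for 220 (3.68%). MALAT1, a nuclear long non-coding RNA, had 2049 CPM in control members and 1846 in other cells, but 393 and 1075 CPM in SP11, log2 ratios of 0.15 and -1.45 and a difference of -1.60 (-1.73 to -1.48). In the median SP11 cell the gap was smaller, 284 against 402 CPM, and the upper quartile of other cells was 1401 CPM, so a part of the other cells held the high levels. STAG1, a cohesin subunit, had log2 ratios of 0.82 and 0.16, and ERCC6L, a helicase of mitotic chromosomes, 0.88 and -0.42.

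DTL and XRCC2 were at least 1.5-fold lower in SP11 members and not in control members. DTL, which targets proteins for destruction at PCNA, had log2 ratios of -0.24 in control and -1.24 in SP11, a difference of -0.99 (-1.45 to -0.55). XRCC2, a gene of DNA repair by recombination, had -0.21 and -1.27. CDC6, which loads the replicative helicase, had 0.44 and -0.27, neither past 1.5-fold. CCNE2, cyclin E2, had 0.28 in control and was higher in SP11 members, with 0.59.

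CCL2, a chemokine, had 30 UMIs in control members and 254 in other cells, a log2 ratio of -0.79 (-1.39 to -0.24), and 60 of the latter came from 1 cell. After SP11 it had 490 and 1573 UMIs, which is a log2 ratio of 0.65 (0.50 to 0.80). MT2A, a metallothionein, had log2 ratios of -0.38 and 0.36. Monocyte and macrophage genes as a list were lower in control members, with 5 of 10 past 1.5-fold and none higher, and in SP11 1 of 14 was higher and 3 were lower. The median cell differed less, at 1978 CPM in control members against 2182 in other cells and 4761 against 4659 in SP11. Granule proteins had sums of -0.15 in control and 0.15 in SP11, with no gene of 9 past 1.5-fold in either library. Both lists were high in level. Granule proteins summed to 4214 CPM in control members and 4261 in SP11 members, and monocyte and macrophage genes to 2159 and 6539. The T-lineage markers had 66.5 and 46.7 CPM in the same cells.

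Several lists held no gene past 1.5-fold. None of 17 heat shock genes driven by HSF1 in control or of 16 in SP11 differed by 1.5-fold between members and other cells, and none of the 82 cytosolic ribosomal protein genes did in either library. None of the 13 mitochondrially encoded genes in control or of 12 in SP11 did, and the median mitochondrial share of members was 8.85% in control and 5.49% in SP11, against 9.11% and 5.66% of other cells. Markers of B cells, erythroid cells and NK cells were low or level. B cell markers were at 17.8 CPM in control members against 24.6 in other cells and at 11.7 against 16.9 in SP11. The 1 B cell marker measured in control was past 1.5-fold lower in members (log2 ratio -0.62), and none was measured in SP11. Erythroid markers were at 7.66 against 5.20 and 7.14 against 4.77. NK cell markers had 233 against 214 CPM and 242 against 230. Short lists held a few genes past 1.5-fold. Of the G1 to S regulators 1 of 16 was higher and 1 lower in control and 2 of 14 were higher in SP11, with sums of 0.04 and 0.05. Of the CDK inhibitors and quiescence genes 2 of 10 were higher (CDKN2C and CDKN2D) and 1 lower (MXD4) in control, and none of 5 in either direction in SP11. Of the p53 targets 1 of 12 was higher and 1 lower in control and 2 of 7 were lower in SP11, with medians of 0.15 and -0.29. Interferon-stimulated genes had medians of -0.28 and -0.27, with none of 5 and none of 4 past 1.5-fold.

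The last comparison set SP11 members beside control members directly. Of 6562 measured genes, 793 (12.1%) were at least 1.5-fold higher in SP11 members and 2261 (34.5%) lower, with a median log2 ratio of -0.27. TMM factors moved that median to 0.06 and the counts to 1630 and 1292, and DESeq2 size factors moved it to 0.07 and the counts to 1650 and 1261, so directions are read against this shift of the median. Among other cells, where more UMIs let 10520 genes be measured, 10.8% were higher and 34.5% lower with a median of -0.29, so these percentages come from different sets of genes.

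Lists of replication genes held genes past 1.5-fold in both directions between the members of the libraries. They are read against the 12.1% higher, 34.5% lower and median of -0.27 over all genes. Of 42 measured S phase genes 10 were higher and 9 lower in SP11 members, with a median log2 ratio of 0.06. Of 27 for origin licensing and firing 4 were higher and 6 lower, with a median of -0.15. Both medians lay above that of all genes. Of 28 for fork protection and recombination 1 was higher and 12 lower, with a median of -0.49, below that of all genes. RRM2 had a log2 ratio of 0.52 between SP11 and control members, PCNA 0.31, and the S phase list as a sum 0.12. FAM111A (1.18), ZWINT, a kinetochore gene (1.04), CCNE2 (1.11) and RECQL4, a helicase (1.28), were past 1.5-fold, and FBXO5 (-0.65), MELK, a mitotic kinase (-0.61), and DTL (-1.13) were lower. SLBP had 0.71 and the list for histone mRNA processing a sum of 0.48. Heat shock genes driven by HSF1 had 8 of 17 higher and 1 lower, with a median of 0.56, among them HSPA8 (1.34) and HSP90AA1 (1.05), the gene for an HSP90 itself. Monocyte and macrophage genes had 9 of 10 higher, with a median of 2.04, and mitochondrially encoded genes had 11 of 13 lower, with a median of -0.83. Other cells differed between the libraries in the same direction. Heat shock genes had 10 of 20 higher there, with a median of 0.58, and histone mRNA processing a sum of 0.47. Monocyte and macrophage genes had 15 of 19 higher and 2 lower, with a median of 1.54. Mitochondrially encoded genes had 11 of 13 lower, with a median of -0.85, and the S phase list a sum of 0.15. These differences were thus not limited to members. CAB39L, higher in members within both libraries, fell by 3.27 on the log2 scale from control to SP11 members. Its fall in other cells was larger, as its ratio of members over other cells was higher in SP11 than in control.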

How the data were processed

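The authors deposited UMI counts, unnormalized, as 1 gene by barcode matrix per library, made with Cell Ranger 7.1.0 per the file headers on GRCh38 per the submitters' notes. Whether intron reads were counted is not given in the sources read for this text. The study's filters of 200 genes and 20% mitochondrial UMIs were applied together with a minimum of 4400 UMIs. These took 1076 control barcodes to 963 (90 under the UMI minimum, 23 over the mitochondrial maximum) and 864 SP11 barcodes to 769 (83 and 12). Doublets were called with Scrublet (scanpy 1.11.5) and kept.

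UMIs were summed over members and over other cells and divided by the sums over genes other than HIST, given as CPM, except that CPM of histone genes used all UMIs. Log2 ratios have 95% exact (Clopper-Pearson) intervals, single CPM values exact Poisson intervals, and shares exact binomial intervals. All cover counting error only. Intervals of a difference of ratios are exact (conditional odds ratio) or, for large counts, from a normal approximation. Genes needed 200 UMIs in a library, or 100 over the members of both. Phases came from Seurat 5.3.0 (R 4.3.3), each library alone.

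The named genes are the histone genes with 200 or more UMIs, the 10 highest and 10 lowest ratios in each comparison, up to 3 from each end of every list, and the 5 at each end of the difference between libraries. SLBP and the genes past 1.5-fold within a list that the text names beside these were chosen after their values were seen. Some genes that the rule takes are left out of the text. The members and lists were chosen with earlier results of these data known. The ratio code was tested on simulated data. TMM factors from edgeR 4.0.16 and size factors from DESeq2 1.42.0 were computed on the summed counts as alternatives, and 15 alternatives were planned and 3 added after the data were seen. Histone sequences were read from GENCODE 44 and its GRCh38 genome.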

Additional observations from a re-analysis of the deposited data

Results flagged for a closer look

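CCL2, a chemokine gene, had a log2 ratio of members over other cells of -0.79 in control and 0.65 in SP11. It stands out because the direction differs between the libraries, with a difference of 1.44 and a counting interval of 0.87 to 2.06. With 1 library per group the difference was not tested. In control the 254 UMIs of other cells include 60 from 1 cell. After thinning to 4400 UMIs, 3.47% of control members and 3.05% of other cells had a CCL2 UMI, and 38.3% and 28.7% in SP11.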

How the results depend on the processing

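No paired analysis was possible because each group has 1 library and no result comes from a test. No value past 1.5-fold changed direction under any alternative. Removing Scrublet calls, a minimum of 6000 UMIs, scoring all HIST genes, leaving 7 genes that can be polyadenylated out of the score, and 5 bins moved no count of genes by 1.5 times and no other main value beyond its counting interval. Within it, removing Scrublet calls took the S difference from -0.03 to -0.00089 and G2M in SP11 from 0.05 to 0.035. The values that moved are these, with S for the S phase list and G2M for the G2M list, as summed log2 ratios of members over other cells. DESeq2 factors gave S 0.47 in control and 0.48 in SP11, G2M 0.33 and 0.18, genes higher 192 and 169, lower 256 and 154, SP11 over control members 1650 higher and 1261 lower, HIST1H 1.06 against 0.71, and a G2M difference of -0.15. TMM factors gave S 0.45 and 0.44, G2M 0.32 and 0.15, in SP11 142 higher and 188 lower, between members 1630 and 1292, and HIST1H 1.05. Equal weight for every cell gave S 0.40 in control, G2M 0.33 and 0.095, and differences of -0.072 (S) and -0.23 (G2M). Thinning gave S 0.42 in control, G2M 0.29 and 0.10, genes lower 121 and 147, higher in SP11 35, and between members 399 higher and 509 lower. The top 10% gave G2M 0.22 and 0.093, 487 genes lower in SP11, HIST1H 0.91 and a G2M difference of -0.12, and the top 20% S 0.42 in control, G2M -0.050 in SP11, HIST1H 0.57 and a difference of -0.27. A mitochondrial maximum of 10% gave S 0.35 and G2M 0.15 in control and a difference of -0.11. A minimum of 1 UMI gave 2084 and 1665 genes higher, 2319 and 1981 lower, and 2152 and 4915 between members, and a minimum of 500 UMIs gave 79 and 22, 121 and 56, and 325 and 469, since it sets how many genes are counted. Joint scoring gave 58.3% S calls among SP11 members, and 41.9% among other SP11 cells against 27.4% when scored alone. Among alternatives chosen after seeing the data, a score without HIST1H4C kept 76.4% and 69.6% of the members and gave S 0.47 and G2M 0.18 in control, G2M -0.11 in SP11, HIST1H 0.60, and differences of -0.095 (S) and -0.29 (G2M). HIST1H4C alone kept 83.3% and 97.4% and gave S 0.33 in control, HIST1H 0.76 and an S difference of 0.017. Removing shared barcodes gave G2M 0.020 in SP11. The cause of these moves was not tested. The sign of G2M in SP11 and of the S difference thus depends on the choice of cells, and depth limits genes under 200 UMIs.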
